A study of Mus musculus with 6 samples.

Results

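The genes described here are 9 transcription factor genes of the osteoblast lineage, namely Runx1, Runx2, Sp7, Dlx3, Dlx5, Dlx6, Msx1, Msx2 and Twist1. They were taken by name from a table of 51912 mouse gene IDs, through the GENCODE M21 annotation of GRCm38, and all 9 had a row. The libraries came from primary osteoblasts grown out of the calvaria (skull cap) of C57BL/6J pups, 1 d old, that were flox/flox at Mark3. In the Mark3-KO group (3 libraries, genotype Mark3-/-) the cells had received CRE-adenovirus for 24 h, and in the WT group (3 libraries, labelled wild-type) they had received GFP-adenovirus for 24 h. Both groups therefore carried the floxed alleles and a virus, and deletion of Mark3, a serine/threonine kinase gene, cannot be told apart from exposure to Cre. The virus reached whatever cells the cultures held, and nothing in the labels tells whether replicates were grown or isolated separately. The p-values below therefore reflect the spread among the 6 libraries alone, and that spread may be technical.

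RUNX2 and SP7 (osterix) are the transcription factors without which mouse osteoblasts do not form, and SP7 acts downstream of RUNX2. RUNX1 is a paralog of RUNX2, best known from blood stem cells, and both bind DNA with the shared partner CBFB. The DLX and MSX proteins are related homeodomain factors of the skull and limb, DLX proteins acting mostly as activators and MSX proteins mostly as repressors, while TWIST1 is a basic helix-loop-helix factor of the skull sutures that holds back RUNX2 in early cells.

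Start-site windows were held by the RefSeq table of GRCm38.p6 for 5 of the 9 genes, 6 windows in all. Those of the RUNX paralogs are shown because RUNX1 and RUNX2 are close relatives and the ratio of their transcripts is compared below. Each line gives the 250 bases before a RefSeq start on the minus strand, 5′ to 3′, and capitals mark the RUNX motif TGTGGT or its reverse complement ACCACA. The Runx2 window is chr17:44814628-44814877, and those of Runx1 are chr16:92826075-92826324 (the distal start) and chr16:92697330-92697579 (the proximal start).
Runx2: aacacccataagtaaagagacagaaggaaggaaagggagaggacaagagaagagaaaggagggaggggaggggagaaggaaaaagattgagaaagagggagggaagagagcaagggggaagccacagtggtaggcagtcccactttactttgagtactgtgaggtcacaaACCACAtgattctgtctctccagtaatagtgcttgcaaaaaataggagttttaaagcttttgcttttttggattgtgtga
Runx1 distal: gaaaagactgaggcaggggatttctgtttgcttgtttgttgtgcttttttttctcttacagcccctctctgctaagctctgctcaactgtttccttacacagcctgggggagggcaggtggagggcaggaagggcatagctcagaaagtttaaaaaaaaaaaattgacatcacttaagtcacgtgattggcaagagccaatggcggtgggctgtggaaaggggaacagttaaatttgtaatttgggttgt
Runx1 proximal: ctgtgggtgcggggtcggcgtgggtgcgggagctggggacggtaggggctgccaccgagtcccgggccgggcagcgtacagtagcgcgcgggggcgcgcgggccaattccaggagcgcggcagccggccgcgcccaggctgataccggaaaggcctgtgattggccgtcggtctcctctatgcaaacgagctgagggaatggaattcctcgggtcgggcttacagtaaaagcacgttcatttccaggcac

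The Runx2 window held 1 RUNX motif, whose first base lay at position -80 from the start, and neither Runx1 window held one. On both strands the motif occurred in 14.0% of 32851 RefSeq windows of the same length. The GC content was 44.8% in the Runx2 window, 45.6% in the distal and 67.6% in the proximal Runx1 window. The counts were made per gene, so they do not say which start a transcript used.

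Libraries held 56925883 to 71445243 counts. Mark3 itself measured 47.5, 52.3 and 44.1 CPM (counts scaled to a common, TMM-adjusted library size) in the Mark3-KO libraries, against 113, 117 and 117 CPM in the WT libraries, and it fell (log2 fold change -1.27, SE 0.10, adjusted p 0.0153, edgeR quasi-likelihood; -1.50 with the GC correction). The Mark3 call was lost without Mark3-KO replicate 2 (adjusted p 0.0797 in edgeR's test), Mark3-KO replicate 3 (0.0626) or WT replicate 2 (0.127). It was also lost with both WT replicate 1 and Mark3-KO replicate 3 left out (0.128). The fold change was -1.34 to -1.21 in these fits. Of all pairs of libraries, WT replicate 3 and Mark3-KO replicate 1 had the most similar counts, though of different groups. Their chi-square per degree of freedom was 66.3, against 76.4 to 235 for pairs within a group. The libraries stood apart by the GC content of transcripts. Mitochondrial transcripts took 2.07, 2.38 and 3.22% of the counts in Mark3-KO, against 1.05, 1.42 and 1.66% in WT, and their part in the results was not tested. For the top decile of GC content, the median log2 deviation from the mean library was -0.21, -0.71 and -1.0 in Mark3-KO, against 1.15, 0.72 and 0.11 in WT, so most fold changes below are given both as measured and after a correction for GC content fitted per library. The correction also takes away any true difference that follows GC content. Markers of osteoblasts were abundant, the 9 together at 14490 to 21418 CPM in Mark3-KO and 21534 to 43085 CPM in WT. Of the other cell types, 8 chondrocyte markers summed to 472 to 680 CPM in Mark3-KO and 762 to 1835 CPM in WT, and 4 markers of pericytes and smooth muscle to 1668 to 2815 CPM and 3120 to 3890 CPM. The gene with the highest mean was Col2a1 in the first list and Acta2 in the second. By sign of the fold change, 2 of the 7 tested chondrocyte markers were higher and 5 lower. In the second list 1 was higher and 3 were lower. The osteocyte (5 markers, at most 2.55 CPM), skeletal myoblast (5, at most 2.57 CPM) and epithelial (4, at most 0.41 CPM) lists were near 0, and 6 adipocyte markers (24.4 to 27.1 CPM in Mark3-KO, 20.1 to 24.1 CPM in WT) and 4 endothelial markers (4.13 to 4.49 and 4.09 to 4.36 CPM) were low, with Sost, Myf5 and Krt14 at 0 counts in every library. In such bulk samples fewer cells of a type and less RNA per cell cannot be told apart.

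Levels among the genes were compared per kilobase of exon, since the genes differ in length. Msx2 and Twist1 were the most abundant in both groups, at 35.1 ± 1.33 and 33.4 ± 3.70 CPM per kb in Mark3-KO and at 38.2 ± 3.68 and 29.2 ± 2.83 CPM per kb in WT (SD, n = 3). Their ranges over libraries overlapped in Mark3-KO and not in WT. Sp7 followed with 12.8 ± 0.898 CPM per kb in Mark3-KO and 14.7 ± 2.52 CPM per kb in WT. Msx1 measured 7.05 ± 0.384 CPM per kb in Mark3-KO and 10.4 ± 2.10 CPM per kb in WT, next to Runx2 at 6.53 ± 0.703 and 8.05 ± 1.11 CPM per kb, and these neighbours overlapped in both groups. Runx1, Dlx6 and Dlx5 made up the lower part. In Mark3-KO they stood in that order without overlap, at 4.18 ± 0.723, 2.06 ± 0.118 and 1.39 ± 0.196 CPM per kb. In WT Dlx5 came first with 3.65 ± 1.63 CPM per kb, ahead of Runx1 (2.27 ± 0.326) and Dlx6 (2.06 ± 0.311), and each overlapped its neighbour. Dlx3 was far below all others, at 0.039 ± 0.025 CPM per kb in Mark3-KO and 0.115 ± 0.032 CPM per kb in WT. Exon lengths were taken over all annotated isoforms, so genes with many isoforms, such as Runx1 (12.0 kb), are placed lower than their main transcript would be.

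**Figure D1:**
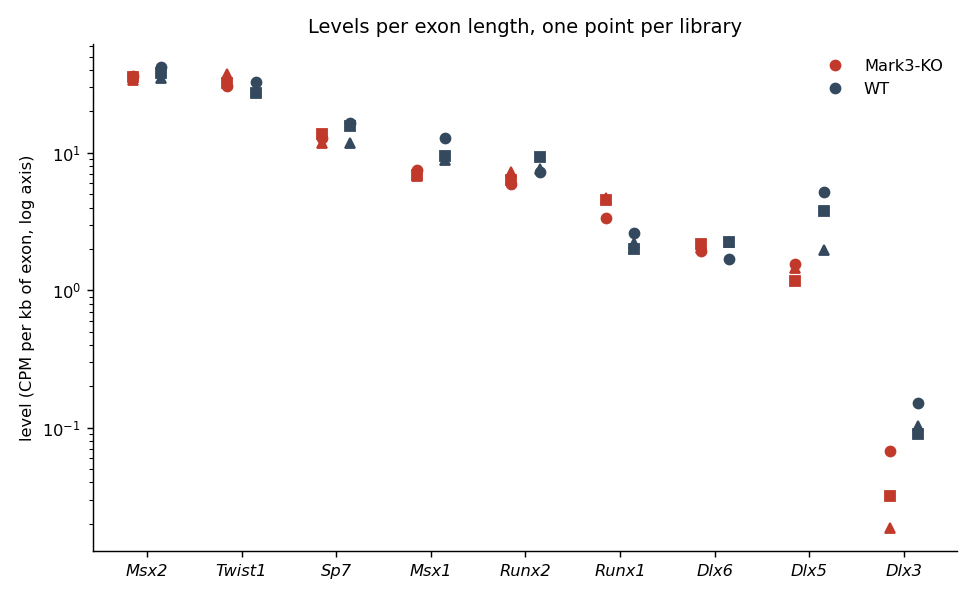
Level of each gene in CPM per kb of exon (log axis), with 1 point per library, Mark3-KO in red left of WT in dark blue, and circles, squares and triangles for replicates 1, 2 and 3. The genes run from Msx2 at about 35.1 CPM per kb to Dlx3 at 0.039 CPM per kb in Mark3-KO, and Runx1 and Dlx5 are the genes whose points lie farthest apart between the groups among those above 1 CPM per kb.

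None of the 9 genes passed the threshold (an edgeR quasi-likelihood p, Benjamini-Hochberg adjusted over 19017 genes, below 0.05), and 0.216% of all tested genes did. At an unadjusted p below 0.05 the count was 4 of the 9, 1 higher and 3 lower in Mark3-KO, against 45.7% of all tested genes (20.8% higher and 24.8% lower). With an adjusted p below 0.1 as the threshold it was 4 of the 9, against 43.7%. Below 0.055 it was 3 of the 9, 1 higher and 2 lower, against 24.8%. The DESeq2 Wald test called 3 of the 9, 1 higher and 2 lower, against 36.4% of all tested genes (14.6% higher and 21.7% lower), and limma-voom 0 of the 9, against 0.142%. Without overlap in CPM between Mark3-KO and WT were 4 of the 9, Runx1 on the higher side and Dlx3, Dlx5 and Msx1 on the lower, against 53.3% of all tested genes (25.8% higher and 27.5% lower). Counted in either direction, these shares were near or below those of all genes, apart from 33.3% against 24.8% below 0.055. On the lower side alone, the 3 of the 9 were a little above the shares of all genes. Leaving out a library changed some calls, since Runx1, Dlx5 and Dlx3 passed in edgeR's test without Mark3-KO replicate 1, and Runx1, Dlx5 and Msx1 without WT replicate 3. In those fits 6383 and 6311 of the 19017 tested genes passed as well. The median log2 fold change was -0.20 over the 9 genes and 0.02 over all tested genes.

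**Figure D2:**
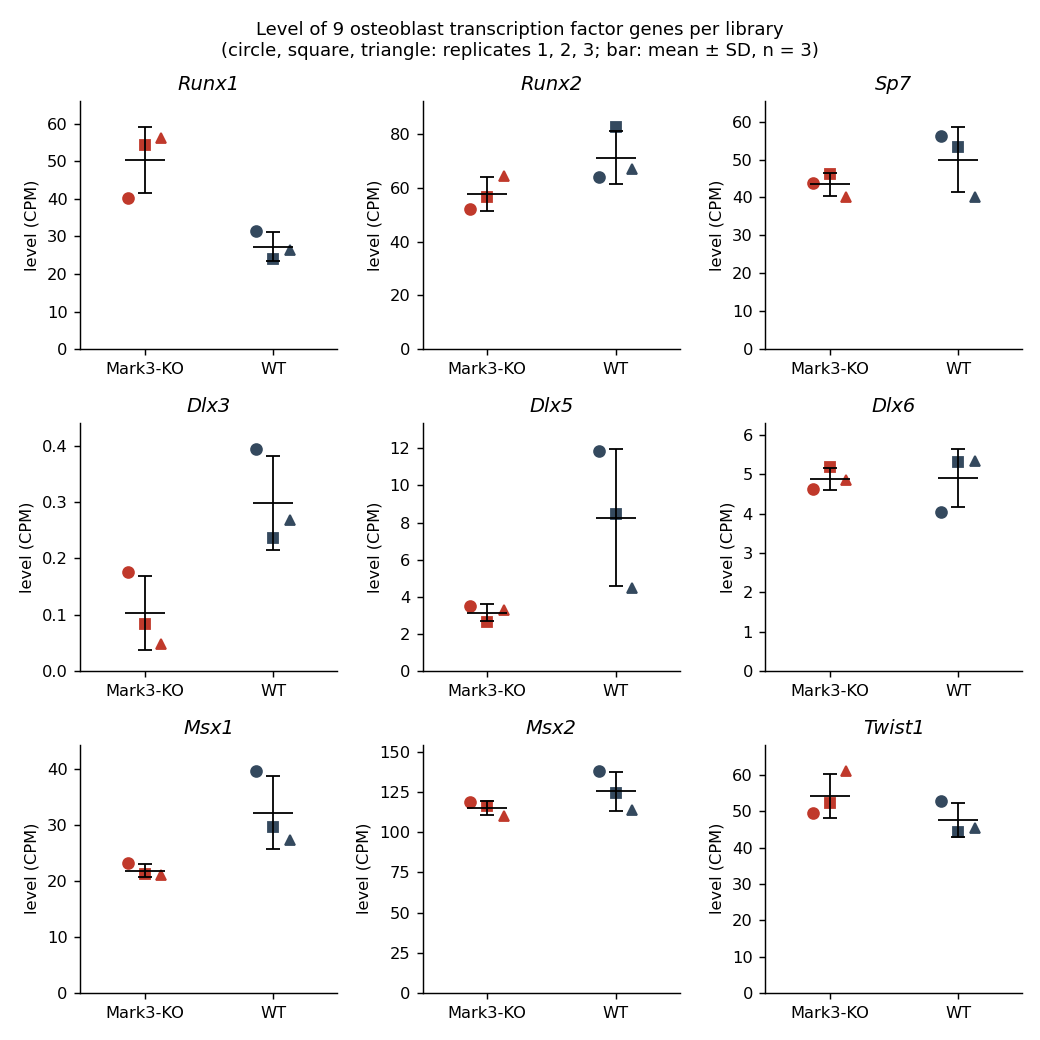
Level of each gene in CPM on a linear axis from 0, by library (circle, square and triangle for replicates 1, 2 and 3), with Mark3-KO left of WT and bars for the mean ± SD of 3 libraries. Runx1 is higher in all 3 Mark3-KO libraries, Dlx3, Dlx5 and Msx1 are lower in all 3, and the other 5 genes overlap.

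Runx1 (chromosome 16, 92601466 to 92826149, minus strand) was the member that stood higher in Mark3-KO. It measured 40.3, 54.4 and 56.2 CPM in the Mark3-KO libraries, against 31.6, 23.9 and 26.3 CPM in the WT libraries. Every Mark3-KO library lay above every WT library, and the mean was 1.85 times that of WT. It had a log2 fold change of 0.88 (SE 0.17, 95% interval 0.47 to 1.30). In edgeR's test 24.8% of all tested genes had an adjusted p below 0.055. That of Runx1 was 0.0506, which misses the threshold, and in the DESeq2 Wald test it was 0.000769. Over the edgeR alternatives the adjusted p ran from 0.0211 to 0.289 and passed in 5 of 14. The GC content of its transcripts was 48.8%, near the middle of all tested genes, and the GC correction left the log2 fold change at 0.83 (SE 0.17, adjusted p 0.102 in edgeR's test). With any library left out it stayed between 0.80 and 1.02.

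RUNX1 is also made by blood cells, so the macrophage and osteoclast markers are given beside it. At an unadjusted p below 0.05, 2 of the 7 markers were higher and 1 lower in Mark3-KO (20.8% and 24.8% of all tested genes). Without overlap between the groups were 2 on the higher side and 2 on the lower, against 25.8% and 27.5% of all tested genes. The 7 markers summed to 210 to 221 CPM in Mark3-KO and 203 to 230 CPM in WT, mostly Ctsk (cathepsin K). The markers given by value next are only some of the 7 and were not chosen by the naming rule below. Ptprc, the pan-leukocyte marker CD45, measured 3.71, 4.21 and 4.29 CPM in Mark3-KO and 1.99, 2.88 and 2.81 CPM in WT. Spi1, which encodes the myeloid factor PU.1, measured 0.529, 0.235 and 0.455 CPM in Mark3-KO and 1.01, 0.617 and 0.447 CPM in WT, and Csf1r, the receptor of macrophage colony stimulating factor, 9.93, 7.80 and 7.44 CPM and 13.4, 12.0 and 10.5 CPM. Ptprc was thus higher and Csf1r lower in every Mark3-KO library, while Spi1 overlapped. The GC correction moved the log2 fold change to 0.06 for Ptprc, 0.09 for Csf1r and 0.20 for Spi1. The median of the 7 markers was then 0.09, against -0.37 as measured. Of the 7, 1 was then higher and 0 lower at an unadjusted p below 0.05 (11.6% and 13.7% of all tested genes). In corrected CPM 2 lay higher and 0 lower without overlap, against 14.4% and 17.6% of all tested genes. The part of such cells in the Runx1 level was not tested.

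Runx2 (chromosome 17, 44495987 to 44814797, minus strand) measured 52.2, 56.5 and 64.4 CPM in Mark3-KO, against 64.0, 82.4 and 67.1 CPM in WT. The highest Mark3-KO library and the lowest WT library overlapped by a narrow margin. Its log2 fold change was -0.30 (SE 0.14, 95% interval -0.63 to 0.03, adjusted p 0.133 in edgeR's test), and it was 0.01 (SE 0.17) after the GC correction. Its exons share 519 bases with the antisense gene Runx2os1, whose counts came to 0.655% of those of Runx2, while the antisense gene Gm26626 shares 106 exon bases with Runx1 and came to 0.787% of its counts. The kit does not mark strand, so reads of such pairs cannot be told apart, and Runx2os1 itself measured 0.274 ± 0.078 CPM in Mark3-KO and 0.574 ± 0.089 CPM in WT (log2 fold change -1.05, adjusted p 0.0518 in edgeR's test, and 0.61 with the GC correction). Supt3, the subunit gene of a histone acetylation complex that begins inside Runx2 on the other strand without sharing exon bases, measured 8.25 ± 0.732 CPM in Mark3-KO and 8.14 ± 0.428 CPM in WT (log2 fold change 0.02; -0.32 with the GC correction).

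Sp7 (chromosome 15, 102356606 to 102367182, minus strand) measured 43.8, 46.3 and 40.2 CPM in Mark3-KO, against 56.2, 53.4 and 40.2 CPM in WT. WT replicate 3 lay just under the lowest Mark3-KO library, and the other WT libraries lay above all of them. This gave a log2 fold change of -0.20 (SE 0.15, 95% interval -0.56 to 0.16, adjusted p 0.33 in edgeR's test). After the GC correction its sign turned and the groups no longer overlapped, with corrected levels of 46.5, 62.6 and 61.4 CPM in Mark3-KO and 36.2, 40.2 and 37.7 CPM in WT (log2 fold change 0.58, SE 0.12, adjusted p 0.102 in edgeR's test).

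The 3 DLX genes differed among themselves. Dlx5 (chromosome 6, 6877805 to 6882085, minus strand), an activator needed for normal skull bone, measured 3.51, 2.65 and 3.27 CPM in Mark3-KO, against 11.8, 8.47 and 4.47 CPM in WT. The groups did not overlap, and the WT libraries were spread over more than a doubling. The Mark3-KO mean was 38.0% of that of WT (log2 fold change -1.39, SE 0.35, 95% interval -2.24 to -0.55, adjusted p 0.0506 in edgeR's test and 0.00213 in the DESeq2 Wald test). The fold change was -1.04 without WT replicate 1. With the GC correction it was -0.34 (SE 0.23, adjusted p 0.396 in edgeR's test), and the corrected levels overlapped.

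Dlx6 (chromosome 6, 6863334 to 6868568, plus strand), which lies beside Dlx5 and is transcribed toward it, did not show that difference. It measured 4.62, 5.18 and 4.84 CPM in Mark3-KO, against 4.04, 5.31 and 5.33 CPM in WT, with the Mark3-KO libraries inside the WT range. Its log2 fold change was 0.00 (95% interval -0.41 to 0.40), and 0.25 (SE 0.18) with the GC correction. The long noncoding RNA gene Dlx6os1, which spans Dlx6 on the other strand and shares none of its exon bases, measured 4.43 ± 2.02 CPM in Mark3-KO and 3.35 ± 0.794 CPM in WT (log2 fold change 0.40, adjusted p 0.395 in edgeR's test, and -0.30 with the GC correction). Dlx6os2, also on the other strand, shares 104 exon bases with Dlx6, so reads there cannot be told apart. Its counts came to 1.53% of those of Dlx6. It measured 0.068 ± 0.028 CPM in Mark3-KO and 0.083 ± 0.017 CPM in WT and was not among the tested genes.

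Dlx3 (chromosome 11, 95120119 to 95125296, plus strand), which acts in late osteoblasts and in hair and teeth, was barely detected. Its counts were 13, 5 and 3 in the Mark3-KO libraries and 23, 13 and 18 in the WT libraries, that is 0.176, 0.084 and 0.049 CPM against 0.394, 0.236 and 0.268 CPM. The log2 fold change was -1.49 (SE 0.49, 95% interval -2.67 to -0.31, adjusted p 0.0654 in edgeR's test), and at this depth its size is only loosely set. Without Mark3-KO replicate 1 it was -2.14. DESeq2 gave it no adjusted p. With the GC correction it was -0.63 (SE 0.39) and the groups overlapped.

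Both MSX genes were clearly detected, and the groups overlapped for Msx2 but not for Msx1. Msx1 (chromosome 5, 37820485 to 37824583, minus strand), a repressor of differentiation in the skull and teeth, measured 23.2, 21.3 and 21 CPM in Mark3-KO, against 39.5, 29.6 and 27.3 CPM in WT. The Mark3-KO libraries lay close together, and WT replicate 1 stood above the other WT libraries. The log2 fold change was -0.56 (SE 0.16, 95% interval -0.95 to -0.17), and its adjusted p was 0.0538 in edgeR's test and 0.0201 in the DESeq2 Wald test. With the GC correction its sign turned to 0.80 (SE 0.22, adjusted p 0.113 in edgeR's test), with corrected levels of 27.1, 35.9 and 43.1 CPM in Mark3-KO and 17.3, 17.8 and 25.8 CPM in WT.

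Msx2 (chromosome 13, 53466884 to 53473074, minus strand), in which gain of function closes the skull sutures early in people, measured 119, 116 and 110 CPM in Mark3-KO, against 138, 124 and 114 CPM in WT. Its log2 fold change was -0.12 (SE 0.10, 95% interval -0.36 to 0.12, adjusted p 0.37 in edgeR's test), so a change of more than 0.36 either way lies outside its interval. It was 0.16 (SE 0.06) with the GC correction.

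Twist1 (chromosome 12, 33957671 to 33959829, plus strand) measured 49.6, 52.2 and 61.1 CPM in Mark3-KO, against 52.9, 44.4 and 45.6 CPM in WT. WT replicate 1 lay among the Mark3-KO libraries. This gave a log2 fold change of 0.19 (SE 0.13, 95% interval -0.11 to 0.49, adjusted p 0.276 in edgeR's test). Its transcript is among those of highest GC content (59.3%), and the GC correction raised the log2 fold change to 1.52 (SE 0.33, adjusted p 0.102 in edgeR's test). The corrected levels were 57.6, 87.1 and 123 CPM in Mark3-KO and 23.6, 27.0 and 42.9 CPM in WT, wider apart within a group than the levels as measured.

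**Figure D3:**
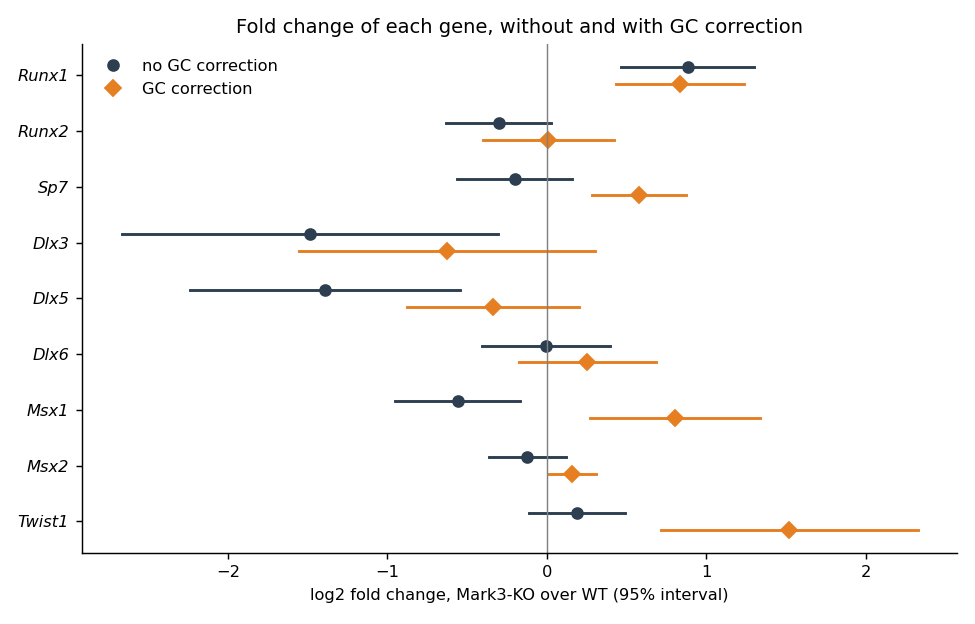
Log2 fold change of Mark3-KO over WT for each gene with its 95% interval, from edgeR's quasi-likelihood fit without (dark circles) and with (orange diamonds) the GC correction. Runx1 is near 0.88 and 0.83 in these fits, while Msx1 moves across 0 from -0.56 to 0.80 and Twist1 from 0.19 to 1.52.

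The GC content of the transcripts set these genes apart from one another and was not used to choose them. It was 48.8% for Runx1, 51.9% for Dlx6, 52.0% for Msx2, 52.2% for Runx2, 55.1% for Sp7, 56.2% for Dlx3, 56.5% for Dlx5, 59.3% for Twist1 and 59.6% for Msx1, and 8 of the 9 lay above the median of the tested genes. In the GC decile of tested genes that holds Runx1 the median log2 fold change was 0.10. It was -0.28 in the decile of Runx2, Dlx6 and Msx2, -0.86 in that of Sp7, Dlx3 and Dlx5, and -1.33 in that of Msx1 and Twist1. Runx2 was thus near the median of its own GC decile, Dlx5 and Dlx3 were below theirs, and the other 6 genes were above theirs, Msx2 by the least. With the GC correction 0 of the 9 passed, against 0.394% of all tested genes. At an unadjusted p below 0.05 it gave 5 higher (Runx1, Sp7, Msx1, Msx2 and Twist1) and 0 lower, against 25.2% of all tested genes, 11.6% higher and 13.7% lower. For the same 5 genes the corrected CPM of every Mark3-KO library lay above every WT library, against 32.0% of all tested genes (14.4% higher and 17.6% lower). Here the share on the higher side was above that of all genes, while no member passed after adjustment. The median of the 9 was then 0.25, against 0.01 over all tested genes.

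**Figure D4:**
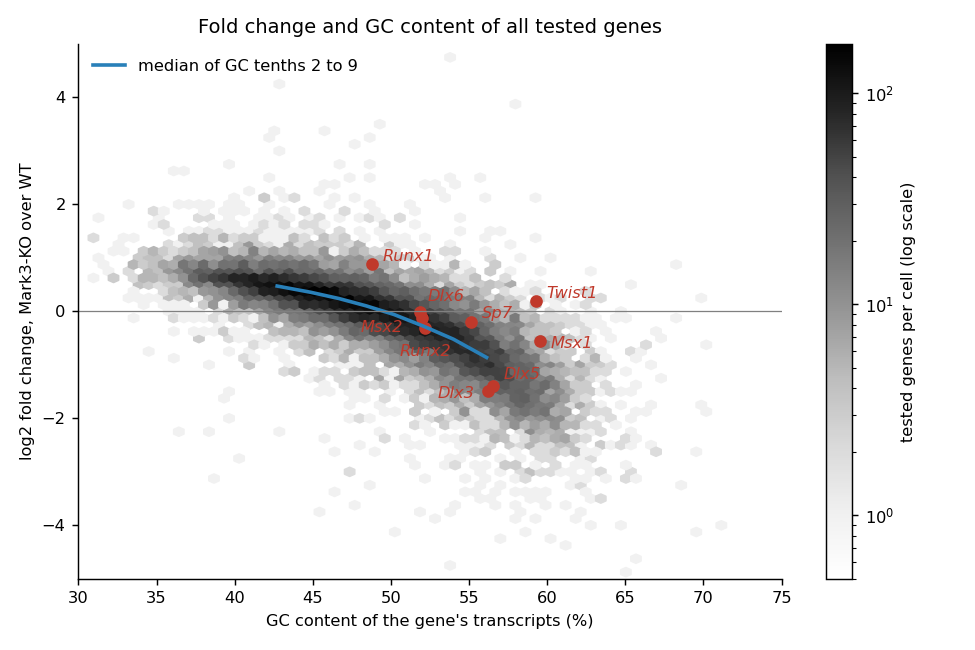
Log2 fold change of Mark3-KO over WT against the GC content of transcripts for 18949 tested genes (grey cells, darker where more genes lie; 16 genes fall outside the axes), the medians of the inner deciles of GC content (blue line, without the lowest and highest decile) and the 9 genes (red). The line runs from 0.47 down to -0.86, Runx1 and Sp7 lie above it and Dlx5 and Dlx3 below it, and Twist1 and Msx1 lie to the right of its end.

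Ratios between members within a library do not depend on how libraries are scaled. The ratio of Runx1 to Runx2, from CPM per kb, was 0.568, 0.708 and 0.641 in the Mark3-KO libraries, against 0.363, 0.213 and 0.289 in the WT libraries. All Mark3-KO values lay above all WT values (log2 difference 1.18, exact permutation test, two-sided p = 0.1), also after the GC correction (0.83). The ratio of Twist1 to Runx2 was likewise higher in all Mark3-KO libraries, at 5.11 ± 0.081 in Mark3-KO and 3.70 ± 0.782 in WT (log2 difference 0.49). The ratios of Msx1 to Msx2 (0.201 ± 0.0065 in Mark3-KO and 0.27 ± 0.029 in WT) and of Dlx5 to Dlx6 (0.681 ± 0.132 and 1.88 ± 1.11) were lower in all Mark3-KO libraries, with log2 differences of -0.42 and -1.30. With the GC correction both overlapped between the groups, and the difference for Msx1 to Msx2 turned to 0.64. The ratio of Sp7 to Runx2 was 1.98 ± 0.309 in Mark3-KO and 1.84 ± 0.388 in WT and overlapped as measured, but not with the GC correction (log2 difference 0.57). The ratio of Dlx3 to Dlx5 overlapped in both cases. With 3 libraries against 3 the exact permutation test cannot give a p below 0.1, and over the 6 ratios compared the smallest Benjamini-Hochberg adjusted value was 0.15, so none of them passed.

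**Figure D5:**
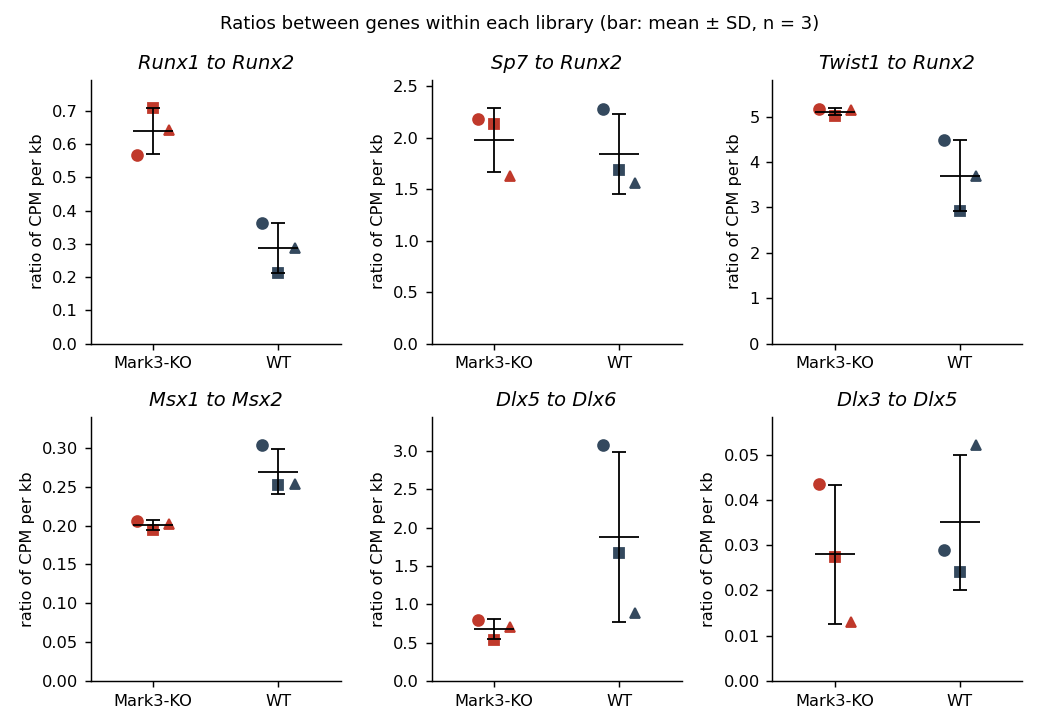
Ratio of CPM per kb between pairs of the genes in each library (circle, square and triangle for replicates 1, 2 and 3), with Mark3-KO left of WT and bars for the mean ± SD of 3 libraries, on linear axes from 0. The Runx1 to Runx2 ratio is at 0.568 to 0.708 in Mark3-KO and at 0.213 to 0.363 in WT.

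Among 18 paralogs and DNA-binding partners of these factors, 15 were tested, 0 passed in edgeR's test, and 3 were higher and 3 lower at an unadjusted p below 0.05, against 20.8% higher and 24.8% lower among all tested genes. Their median log2 fold change was -0.16. The E protein gene Tcf3, whose product pairs with TWIST1, measured 17.6, 3.69 and 3.06 CPM in Mark3-KO, against 97.5, 64.8 and 27.2 CPM in WT (log2 fold change -2.96, adjusted p 0.0513 in edgeR's test). Id3, whose product binds E proteins and keeps them off DNA, measured 16.8, 8.58 and 6.29 CPM in Mark3-KO, against 92.2, 60.6 and 21.7 CPM in WT (log2 fold change -2.46). For both genes the groups did not overlap and the libraries of each group differed severalfold. Of the 15 tested, 3 lay higher and 3 lower without overlap, against 25.8% and 27.5% of all tested genes. Without Mark3-KO replicate 1 the fold change of Tcf3 was -4.23 (adjusted p 0.0286 in edgeR's test) and that of Id3 -2.97 (0.0292), and the GC correction left -1.50 for Tcf3 and -1.51 for Id3. The other E protein genes, chosen after their values were seen, overlapped between the groups, with Tcf4 at 156 ± 12.0 CPM in Mark3-KO and 156 ± 11.4 CPM in WT, and Tcf12 at 260 ± 86.4 and 291 ± 37.0 CPM. Sp3, a zinc finger relative of Sp7, measured 166 ± 22.1 CPM in Mark3-KO and 108 ± 19.6 CPM in WT (0.63, and 0.01 with the GC correction), and Dlx2 0.85 ± 0.091 and 1.59 ± 0.452 CPM (-0.90, and 0.37 with the GC correction). Cbfb, the partner of both RUNX proteins, also chosen after its values were seen, measured 184 ± 25.0 CPM in Mark3-KO and 131 ± 16.2 CPM in WT (0.49, and 0.03 with the GC correction).

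Of 47 other transcription factors and co-regulators of osteoblast differentiation, all tested, 0 passed in edgeR's test, and 6 were higher and 22 lower at an unadjusted p below 0.05, against 20.8% higher and 24.8% lower among all tested genes. Their median log2 fold change was -0.31, and -0.01 with the GC correction, where 7 were higher and 10 lower at an unadjusted p below 0.05, against 11.6% higher and 13.7% lower among all tested genes. Zfp423, a zinc finger factor best known from fat cell precursors, measured 2.96, 1.95 and 2.36 CPM in Mark3-KO, against 10.3, 7.06 and 4.65 CPM in WT (log2 fold change -1.60; -0.59 with the GC correction). Stub1, a ubiquitin ligase gene whose product acts on RUNX2, measured 22.9 ± 7.43 CPM in Mark3-KO and 58.7 ± 16.4 CPM in WT (-1.36, and -0.06 with the GC correction). Men1, the gene of menin, measured 16.9 ± 4.38 and 43.4 ± 15.4 CPM (-1.36, and -0.12 with the GC correction). Creb3l1, whose product OASIS drives Col1a1 transcription in osteoblasts, measured 74.3 ± 10.6 CPM in Mark3-KO and 139 ± 35.6 CPM in WT (-0.90, and 0.46 with the GC correction). All 4, which had the smallest p of the list, lay lower in every Mark3-KO library than in any WT library as measured. Of the 47, 5 lay higher and 26 lower without overlap, against 25.8% and 27.5% of all tested genes.

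Of 24 RUNX2 and SP7 target and osteoblast marker genes, 22 were tested, 0 passed in edgeR's test, and 4 were higher and 10 lower at an unadjusted p below 0.05, against 20.8% higher and 24.8% lower among all tested genes. The median log2 fold change was -0.55, and -0.13 with the GC correction, where 0 were higher and 7 lower at an unadjusted p below 0.05, against 11.6% higher and 13.7% lower among all tested genes. Pth1r, the parathyroid hormone receptor gene, measured 12.2, 10.2 and 6.78 CPM in Mark3-KO, against 39.5, 30.5 and 17.3 CPM in WT (log2 fold change -1.58; -0.21 with the GC correction). Bglap2, one of the osteocalcin genes, measured 0.623, 0.369 and 0.26 CPM in Mark3-KO, against 1.25, 1.63 and 1.03 CPM in WT (-1.62, and -0.76 with the GC correction). Its counts can be shared with the near-identical Bglap and are uncertain for that reason. Fgfr1, a fibroblast growth factor receptor gene, measured 176 ± 33.3 CPM in Mark3-KO and 324 ± 51.4 CPM in WT (-0.88, and -0.17 with the GC correction), and Fmod, the proteoglycan fibromodulin, 745 ± 70.9 and 1048 ± 81.0 CPM (-0.49, and 0.12 with the GC correction). All 4, which had the smallest p of the list, lay lower in every Mark3-KO library than in any WT library as measured. Of the 22 tested, 4 lay higher and 9 lower without overlap, against 25.8% and 27.5% of all tested genes. Col1a2 and Spp1, chosen after their values were seen, lay on opposite sides. Col1a2 measured 8097 ± 84.3 CPM in Mark3-KO and 13479 ± 3106 CPM in WT, and Spp1 1487 ± 56.9 and 1177 ± 90.6 CPM. With the GC correction Col1a2 was at -0.97 and Spp1 at 0.00 (log2 fold change).

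The genes whose levels followed Runx2 most closely over the 6 libraries, among 9354 with a mean of at least 10 CPM, were Auh (Pearson r 0.97), Robo1 (0.96) and Scara5 (0.94). For Sp7 they were Lmx1b (0.98), Uqcrq (0.97) and Agrn (0.97). These correlations of log2 CPM are descriptions over 6 points that share the GC trend of their libraries, and r was above 0.9 for 0.171% of genes with Runx2 and for 0.802% with Sp7.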

How the data were processed

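RNA-seq libraries (TruSeq RNA kit v2, which does not mark strand) of the Mark3-KO and WT groups (3 each) were analysed. Whole-number counts per Ensembl gene ID were used as deposited by the authors. The submitters' processing notes name build GRCm38 and, in no stated order, HISAT2 2.0.5, FastQC, DESeq2 and StringTie. The annotation release, and how shared or multiply mapped reads were counted, are not given in the sources used here. GENCODE M21 gave symbols, positions, exon lengths and GC content, and 193 of the 51912 IDs were unmatched.

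Genes were kept with filterByExpr (19017 tested), scaled with TMM and tested with edgeR 4.0.16's quasi-likelihood test in R 4.3.3 on all 6 libraries, with Benjamini-Hochberg adjustment over all of them and a threshold of 0.05. Standard errors were taken from the fold change and the F statistic. Alternatives were DESeq2 1.42.0 (Wald test, size factors), limma 3.58.1 (voom), library size alone, other filters, the replicate number as a block, a GC correction (per library, a natural spline with 6 degrees of freedom of log2 ratios on GC content, as an offset), each library left out, and a threshold of 0.1. The fit of 4 libraries (without WT replicate 1 and Mark3-KO replicate 3) and the GC correction of ratios were added after seeing the data. No 2 libraries were copies (chi-square per degree of freedom 66.3 to 725 between pairs). Genes named from the lists are the up to 4 with the smallest p in each. Also named are the 9 members, Mark3 and genes overlapping or starting within 5 kb of a member. Of the latter, n-R5s27, Runx2os3 and a short second entry of Dlx6os1, with 0 to 4 counts per library, are given no levels. Named cell type markers, and genes said to be chosen after their values were seen, fall outside this rule. The members and lists were chosen with earlier results of these data known.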

Additional observations from a re-analysis of the deposited data

How the results depend on the processing

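The count of genes called and the direction of several members depended on the processing, and the cause was not tested. Of all genes, 41 passed, against 4533 with library size alone, 5266 with a filter of 1 CPM in 3 libraries, 6915 with DESeq2's Wald test, 27 under limma-voom, 75 with the GC correction, 8317 at a threshold of 0.1, 0 with the 4 libraries nearest each other (3244 in edgeR's test before adjustment), and 0 (without WT replicate 2, with 5799 at an unadjusted p below 0.05) to 6383 (without Mark3-KO replicate 1) with a library left out. Without Mark3-KO replicate 2 the count was 3, without Mark3-KO replicate 3 it was 6, without WT replicate 1 it was 15, and without WT replicate 3 it was 6311. Library size alone shifted the median over all genes to 0.13 on the log2 scale, against 0.02, and gave 2210 higher and 2323 lower genes, against 9 higher and 32 lower. Of the 9 members 0 passed, against 2 with library size alone (Dlx5, Runx1) and 3 with the DESeq2 Wald test (Dlx5, Msx1, Runx1). The filter of 1 CPM removed Dlx3, and of the 8 members left the same 3 passed. At a threshold of 0.1, 4 of the 9 passed. With a library left out, 0 to 3 passed. Those were Dlx3, Dlx5 and Runx1 without Mark3-KO replicate 1, and Dlx5, Msx1 and Runx1 without WT replicate 3.

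Same-numbered libraries had correlated deviations for replicates 1 and 3 (0.33 and 0.29) but not for replicate 2 (-0.03). Between libraries of different number the correlations ran from -0.35 to 0.09. In both groups the deviation of the top GC decile fell, and the mitochondrial share rose, from replicate 1 to replicate 3. The labels do not say whether the numbers mark pairs, so the replicate block was run only as an alternative. The replicate block gave 8487 genes (44.6%) and 4 members (Dlx3, Dlx5, Msx1 and Runx1), and the replicate block with the GC correction 1035 genes and 3 members (Msx1, Sp7 and Twist1, all higher).

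The sign turned with the GC correction, and with the replicate block added to it, for Runx2 (0.0090 and 0.00068), Sp7 (0.58 and 0.57), Dlx6 (0.25 and 0.27), Msx1 (0.80 and 0.80), Msx2 (0.16 and 0.16), Dlx2 (0.37 and 0.37), Creb3l1 (0.46 and 0.46) and Fmod (0.12 and 0.12). Among the neighbouring genes it turned with the GC correction for Runx2os1 (0.61), Supt3 (-0.32) and Dlx6os1 (-0.30). Dlx6, at 0.00, also turned to 0.10 with library size alone, 0.022 with the filter of 1 CPM, 0.0028 with limma-voom and 0.0053 with the replicate block, and ran from -0.12 to 0.058 with a library left out. The ratio of Msx1 to Msx2 turned to 0.64 with the GC correction, and that of Dlx3 to Dlx5 ran from -0.81 to 0.062 (without Mark3-KO replicate 3) with a library left out. Runx1 kept its sign in all 16 alternatives (0.80 to 1.02), as did Dlx5 (-1.71 to -0.33) and Twist1 (0.10 to 1.52). Dlx3, with 3 to 23 counts per library, is limited by depth.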

Other observations

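Some osteoblast genes varied widely within a group. Prrx1, a homeobox gene of limb and skull mesenchyme, measured 817 ± 323 CPM in Mark3-KO and 463 ± 53.8 CPM in WT (log2 fold change 0.82; 0.38 with the GC correction), and its groups overlapped. Yap1, the Hippo pathway co-activator, measured 112 ± 60.6 CPM in Mark3-KO and 140 ± 34.3 CPM in WT, and Sparc, the matrix protein osteonectin, 4627 ± 2791 CPM and 3629 ± 599 CPM. Runx3, the remaining RUNX gene, measured 10.4 ± 1.69 CPM in Mark3-KO and 12.1 ± 4.61 CPM in WT (-0.21, and 1.10 with the GC correction). These genes were chosen after their values were seen.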
